A study of Mus musculus with 6 samples.

Results

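A set of 58 genes of NMuMG cells was chosen by the measured values themselves: their level fell with TGF-β and was higher again when 2APB was present. A gene is a member if the higher of its TGF-β values was at most 1/1.4 of the lower DMSO value and at most 1/1.4 of the lower TGF-β+2APB value, with a mean DMSO level of 1 CPM or more (the count divided by the total of its library, times 1000000). Of the 18512 entries in the count table, 58 met this rule. In 8 of them (Cpb2, Cyp2d10, Tff3, Eps8l3, Fabp2, Inmt, Apoc1 and Gsta1) both TGF-β libraries and at least 1 TGF-β+2APB library had 0 counts, so they met the 2APB condition only as 0 against 0 and were not restored. The remaining 50 members had counts to compare. By the same margin 1850 entries fell with TGF-β, of which the 58 are 3.14% and the 50 are 2.70%, while 507 (27.4%) fell further by that margin when 2APB was added.

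NMuMG is an established epithelial line from mouse mammary gland, widely used to study the epithelial-mesenchymal transition (EMT), in which epithelial cells lose their junctions and polarity. TGF-β is a secreted ligand that drives this transition through receptor kinases and SMAD proteins, in part by inducing SNAIL and ZEB repressors that bind E-box sequences in epithelial genes. 2APB (2-aminoethoxydiphenyl borate) alters store-operated calcium entry, the inflow of calcium that follows emptying of the endoplasmic reticulum, and also acts on other calcium channels. The study asked which TGF-β responses were reversed by 2APB.

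The 3 groups were cells given DMSO (the vehicle), TGF-β at 5 ng/ml, and TGF-β at 5 ng/ml with 2APB at 50 uM, with 2 replicates each of the same unmodified line. The treatment is described as 24 h in one place of the study and as 2APB for 24 h before TGF-β in another. No library had 2APB without TGF-β, so an action of 2APB on the TGF-β response and an action of its own cannot be told apart. The methods of the study call the 2 libraries of a treatment biological replicates. The labels do not say whether they came from separate cultures. The p-values measure the spread between replicate libraries, pooled over all 3 groups in one fit. Those for TGF-β+2APB against DMSO therefore also rest on the spread of the TGF-β pair. Among 11615 entries with a mean DMSO level of 1 CPM or more and no count of 0, 11.8% differed over 1.5-fold between the TGF-β replicates. The shares were 0.646% in DMSO and 4.81% with TGF-β+2APB. In bulk RNA, fewer cells of a type and less RNA per cell cannot be told apart.

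Totals ran from 71840570 to 79473182 counts per library. The 9 listed of 10 epithelial markers summed to 7163 to 17601 CPM, mostly Krt8 and Krt18 (keratins of simple epithelia), while Esrp1 and Cldn7 were at or near 0 in every library. These markers did not move together. Of the 7 tested by edgeR (FDR of 0.05 or less), 4 were higher and 3 lower in TGF-β+2APB than in DMSO. Krt19 went from 598.2 and 567.8 CPM in DMSO to 21.4 and 44.3 CPM with TGF-β+2APB. Cdh1 went from 1209 and 1221 CPM to 445.7 and 528.3 CPM. The 7 hepatocyte markers, led by Alb, summed to 1246 and 1147 CPM in DMSO, 16.7 and 9.15 CPM with TGF-β, and 1.94 and 2.31 CPM with TGF-β+2APB. Several members are known as liver or intestine genes, and whether they share a source with these markers was not tested. TGF-β+2APB replicate 2 stood apart in leukocyte transcripts, whose values are given beside Laptm5, Rab3il1 and Gas7.

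The 50 members with counts lost a median of 2.73-fold with TGF-β (mean DMSO CPM over mean TGF-β CPM) and stood a median of 2.07-fold above TGF-β when 2APB was added. These values come from the contrasts that chose the members and are a description. Their mean DMSO levels ran from 1.09 to 464.6 CPM with a median of 7.60 CPM, and 20 of the 50 lay under 5 CPM. The share of the TGF-β loss that was regained (the rise from TGF-β to TGF-β+2APB divided by the fall from DMSO to TGF-β, on mean CPM) had a median of 58.1% and ran from 2.52% in Lgals4 to 945.6% in Laptm5. It was 100% or more in 15 members, 50% to 100% in 15, 10% to 50% in 16 and under 10% in 4. Both TGF-β+2APB libraries lay above both DMSO libraries in 11 members and below both in 33, and the groups overlapped in 6. Among all 13353 entries tested, 37.8% lay above by the same count and 48.1% below. The label "restored" therefore holds for some members in full and for most in part.

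**Figure D1:**
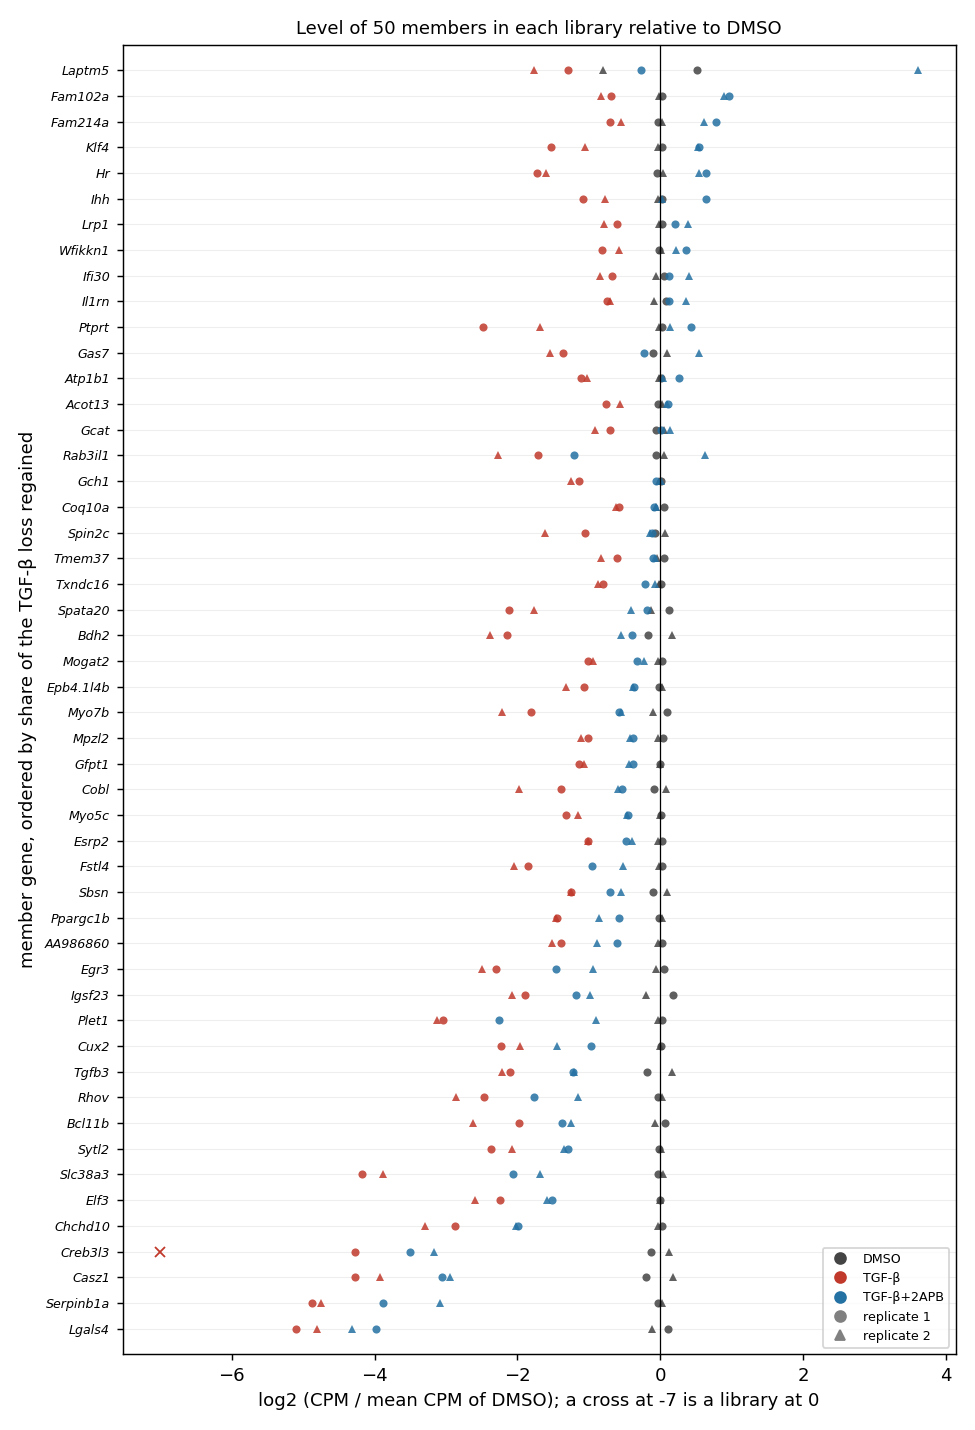
Level of each of the 50 members with counts in the 6 libraries, as log2 of CPM over the mean DMSO CPM, with members ordered by the share of the loss regained and replicates shown as circles and triangles. The TGF-β points lie left of both other groups for each gene by the rule, and the TGF-β+2APB points move from far left of the DMSO line (Lgals4, Serpinb1a) to right of it (Fam102a, Klf4, Hr).

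The comparison of TGF-β+2APB with DMSO is not in the rule, although it uses libraries that chose the members. By edgeR's quasi-likelihood test with Benjamini-Hochberg adjustment (FDR of 0.05 or less, 13353 entries tested), 5 of the 58 members were higher than in DMSO (8.62%, against 25.6% of all entries tested) and 30 were lower (51.7%, against 27.2%). The 30 include all 8 members at 0 against 0, which met the rule with 0 counts in at least 1 TGF-β+2APB library. Over the 50 with counts, 5 were higher (10%), 22 lower (44%) and 23 not called. Of the 58, 14 were called lower without DMSO replicate 1 and 17 without DMSO replicate 2, and the higher calls ran from 3 to 8 with 1 library left out. Of the 22 lower calls among members with counts, 7 held in every alternative in which the gene was tested (Slc38a3, Casz1, Serpinb1a, Chchd10, Sytl2, Elf3 and Lgals4), as did 3 of the 5 higher calls (Hr, Fam102a and Fam214a). Of the 2634 entries called lower with TGF-β, 2340 (88.8%) were also called lower in TGF-β+2APB than in DMSO. The members' lower share has no test, since the rule asks for a rise over TGF-β. The median log2 fold change against DMSO was -0.34 over the 50 and -0.45 over the 58, against -0.003 over all entries tested. As a description of what the rule picked, 54 of the 58 were called lower with TGF-β (19.7% of all entries), 40 were called higher in TGF-β+2APB than in TGF-β (6.58%), and 38 passed in both steps (0.869%, or 116 entries). The other 78 entries that passed both steps are no members because their mean DMSO level was under 1 CPM (11 entries) or a margin was under 1.4 (67 entries).

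**Figure D2:**
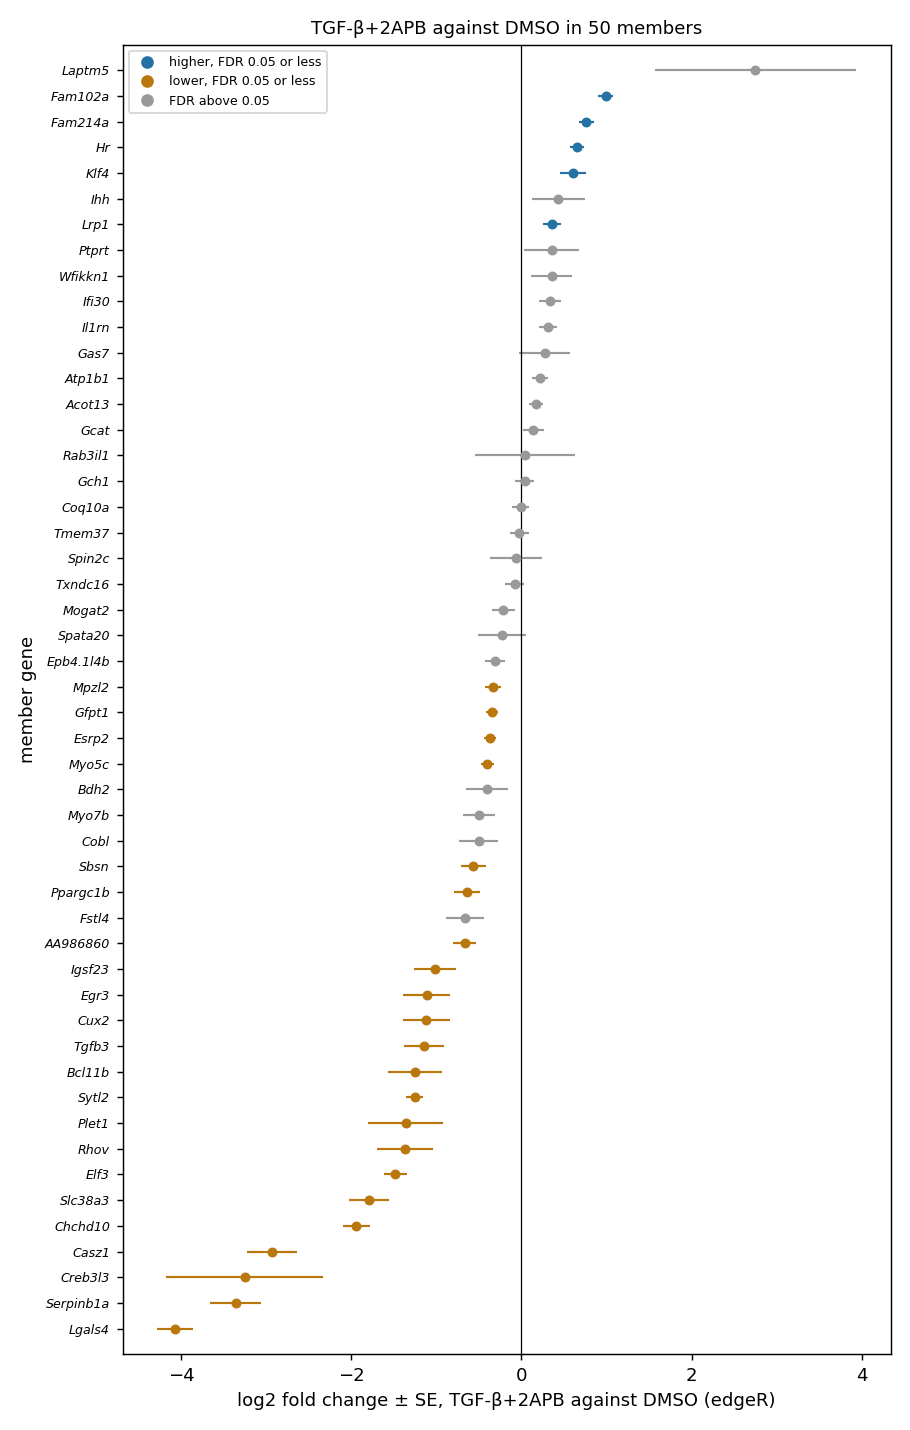
Log2 fold change of TGF-β+2APB against DMSO with its standard error (edgeR, 2 replicates per group) for the 50 members with counts, coloured by the call at an FDR of 0.05. The 5 genes called higher run from 0.36 to 0.99 and the 22 called lower from -4.07 to -0.33, while Laptm5 and Rab3il1 have wide errors.

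The transcription regulators (9 members, grouped by role after their values were known, as were all role groups here) divided into 2 called higher than DMSO and 7 called lower. Of all entries tested, 25.6% were called higher and 27.2% lower, the shares to set beside each role group. Klf4 (chr4:55527143-55532466 in GRCm38), a zinc finger factor of epithelial barrier formation, measured 15.2 and 14.6 CPM in DMSO, 5.16 and 7.20 CPM with TGF-β, and 21.8 and 21.6 CPM with TGF-β+2APB. The TGF-β+2APB libraries thus lay above both DMSO libraries, by 0.60 on the log2 scale (SE 0.15, FDR 0.0191 in edgeR), a call that was lost when any 1 DMSO or TGF-β+2APB library was left out (FDR up to 0.114 over all alternatives). Hr (chr14:70552212-70573548), the nuclear receptor corepressor hairless, measured 20.2 and 21.4 CPM in DMSO, 6.29 and 6.84 CPM with TGF-β, and 32.4 and 30.3 CPM with TGF-β+2APB. It was higher than DMSO by 0.66 (SE 0.08, FDR 0.0015 in edgeR), and the call held under all 14 alternatives.

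Elf3 (chr1:135253575-135258568), an ETS factor of epithelial differentiation, showed only partial return. It measured 66.1 and 65.9 CPM in DMSO, 13.9 and 10.9 CPM with TGF-β, and 23.2 and 22.0 CPM with TGF-β+2APB, and regained 19.0% of its loss. Its log2 fold change against DMSO was -1.48 (SE 0.13, FDR 0.0004 in edgeR), with no overlap between the groups. Egr3, an early-response zinc finger factor, measured 2.58 and 2.39 CPM in DMSO, 0.503 and 0.441 CPM with TGF-β, and 0.906 and 1.29 CPM with TGF-β+2APB. It regained 31.2%. The rest were Casz1, Bcl11b and Cux2 (developmental transcription factors), Creb3l3 (a membrane-bound factor of liver and intestine) and Ppargc1b (the coactivator PGC-1β). All 5 were called lower than DMSO, and they regained from 7.05% in Casz1 to 38.8% in Ppargc1b. The rises of Casz1, Cux2, Bcl11b and Creb3l3 over TGF-β were not called (FDR 0.058 to 0.249 in edgeR), although the rule asks for a rise.

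**Figure D3:**
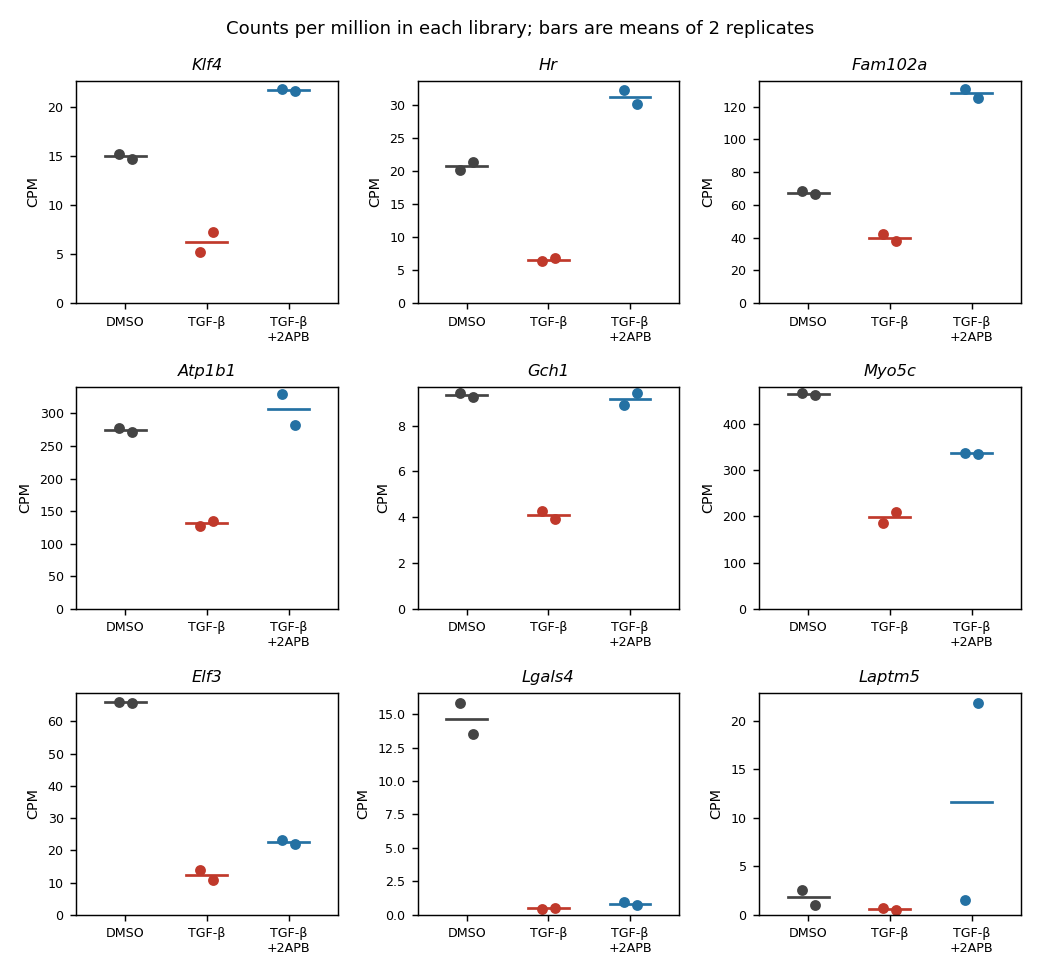
CPM of 9 members in each library (points) with the group mean (bars, 2 replicates per group), each panel on its own linear axis from 0. Klf4, Hr and Fam102a end above DMSO, Atp1b1 and Gch1 near it, Myo5c and Elf3 below it, Lgals4 stays near its TGF-β level, and the Laptm5 mean with TGF-β+2APB rests on replicate 2.

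The ligands, receptors and antagonists (7 members) regained a median of 148.0%, with 1 called higher than DMSO, 1 called lower and 5 not called. Lrp1, a large endocytic receptor, measured 298.6 and 289.8 CPM in DMSO, 193.6 and 169.7 CPM with TGF-β, and 340.4 and 384.2 CPM with TGF-β+2APB. It was higher than DMSO by 0.36 on the log2 scale (SE 0.10, FDR 0.0295 in edgeR), but not when any 1 DMSO or TGF-β+2APB library was left out (FDR up to 0.169 over all alternatives). Ptprt, a receptor tyrosine phosphatase, had the second largest margin of all members (3.16-fold) at low counts, with 1.43 and 1.39 CPM in DMSO, 0.252 and 0.441 CPM with TGF-β, and 1.91 and 1.55 CPM with TGF-β+2APB. Tgfb3, itself a TGF-β ligand, measured 2.58 and 3.29 CPM in DMSO, 0.679 and 0.634 CPM with TGF-β, and 1.26 and 1.27 CPM with TGF-β+2APB. Both TGF-β+2APB values were below both DMSO values (log2 fold change -1.15, SE 0.23, FDR 0.0086 in edgeR, and 0.0822 without DMSO replicate 2). The secreted antagonist Il1rn, which blocks the interleukin-1 receptor, measured 46.3 and 41.4 CPM in DMSO, 26.2 and 26.8 CPM with TGF-β, and 47.8 and 56.5 CPM with TGF-β+2APB. Its FDR against DMSO was 0.0509, so it was not called. Ihh (a hedgehog ligand) and Wfikkn1 (a secreted protein that binds myostatin) regained 161.5% and 158.7%, at mean DMSO levels of 1.22 and 1.24 CPM. Their fall with TGF-β was not called (FDR 0.0715 and 0.0782 in edgeR), so these shares divide by a loss that was not detected.

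The cytoskeleton and vesicle traffic genes (9 members) included 4 called lower than DMSO (1 of them, Eps8l3, at 0 against 0) and 5 not called. Myo5c, a class V myosin of secretory epithelia, was the most abundant of them, with 466.4 and 462.7 CPM in DMSO, 186.7 and 210.0 CPM with TGF-β, and 338.2 and 336.2 CPM with TGF-β+2APB. It regained 52.2% and was called lower than DMSO (log2 fold change -0.40, SE 0.07, FDR 0.0057 in edgeR), but not without DMSO replicate 1 or TGF-β+2APB replicate 2 (FDR up to 0.0626). Myo7b, a myosin of the intestinal brush border, measured 8.21 and 7.15 CPM in DMSO, 2.19 and 1.65 CPM with TGF-β, and 5.16 and 5.25 CPM with TGF-β+2APB. Cobl, an actin nucleator also of the brush border, regained 52.4%, and neither gene was called against DMSO (FDR 0.0702 and 0.113 in edgeR). Sytl2, an effector of Rab27 in exocytosis, fell from 76.4 and 77.5 CPM to 14.9 and 18.3 CPM with TGF-β and regained 23.6%, at 31.5 and 30.2 CPM with TGF-β+2APB. Epb4.1l4b, a FERM domain protein, regained 59.1%.

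Of the 3 membrane transport genes, Slc38a3, a glutamine transporter, had the largest margin of all members (3.56-fold) and yet remained well below DMSO. It measured 3.99 and 4.18 CPM in DMSO, 0.226 and 0.276 CPM with TGF-β, and 0.982 and 1.27 CPM with TGF-β+2APB, a return of 22.8% (log2 fold change against DMSO -1.79, SE 0.24, FDR 0.0017 in edgeR). Atp1b1 (chr1:164437109-164458355), the β1 subunit of the sodium pump, was the member with the highest level per length in DMSO (89.2 RPKM, which is CPM per kilobase of exon). It measured 277.2 and 272.2 CPM in DMSO, 127.8 and 135.5 CPM with TGF-β, and 330.5 and 282.1 CPM with TGF-β+2APB. The difference from DMSO was 0.22 (95% interval -0.02 to 0.46, FDR 0.106 in edgeR). Tmem37, related to calcium channel γ subunits, measured 25.2 and 23.5 CPM in DMSO and 22.7 and 23.2 CPM with TGF-β+2APB, with a 95% interval of -0.29 to 0.25 for the log2 difference.

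Metabolic, mitochondrial and lipid-carrier genes made up 13 members, of which 7 were called lower than DMSO (5 of them at 0 against 0) and 6 were not called. Gch1, the rate-limiting enzyme of tetrahydrobiopterin synthesis, came closest to its DMSO level among those with a large margin. It measured 9.41 and 9.24 CPM in DMSO, 4.25 and 3.91 CPM with TGF-β, and 8.91 and 9.42 CPM with TGF-β+2APB (log2 fold change against DMSO 0.04, 95% interval -0.24 to 0.31). Bdh2, a cytosolic 3-hydroxybutyrate dehydrogenase, measured 2.16 and 2.73 CPM in DMSO, 0.554 and 0.469 CPM with TGF-β, and 1.86 and 1.68 CPM with TGF-β+2APB. Acot13, an acyl-CoA thioesterase, measured 32.0 and 33.1 CPM in DMSO, 19.3 and 22.1 CPM with TGF-β, and 35.2 and 34.9 CPM with TGF-β+2APB. Gfpt1, the rate-limiting enzyme of hexosamine synthesis, regained 53.3% and was called lower than DMSO (FDR 0.0079 in edgeR), but not without either DMSO library or TGF-β+2APB replicate 2 (FDR up to 0.101). Chchd10, a mitochondrial intermembrane protein, regained 14.8% and its lower call held in all 14 alternatives. Gcat, Mogat2 and Coq10a (enzymes of threonine breakdown and triacylglycerol synthesis, and a coenzyme Q binding protein) regained 112.8%, 64.6% and 85.6%, with an FDR against DMSO of 0.373, 0.229 and 0.943 in edgeR.

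All 8 surface, secreted and protease-related members were called lower than DMSO (27.2% of all entries tested were), 2 of them (Tff3 and Cpb2) at 0 against 0. This group too was formed after the values were known. Lgals4, a galectin of the gut epithelium, measured 15.8 and 13.5 CPM in DMSO, 0.428 and 0.524 CPM with TGF-β, and 0.931 and 0.736 CPM with TGF-β+2APB. It met the 1.4-fold rule by the smallest margin (1.41) while regaining only 2.52% of a 30.8-fold loss. Serpinb1a, a serpin that inhibits neutrophil proteases, regained 5.96%. Plet1, a surface protein of placenta and skin progenitors, regained 28.9%, which rests on TGF-β+2APB replicate 2 (1.68 CPM against 0.654 CPM in replicate 1, from which the return would be 10.4%), and its call against DMSO held in 8 of 14 alternatives. Mpzl2, a junctional adhesion protein, regained most in this group (53.8%). Tff3, a trefoil peptide of mucous epithelia, measured 11.9 and 9.21 CPM in DMSO and 0 in both TGF-β libraries, at least 267.1-fold lower when set against 3 counts per library, and TGF-β+2APB held 0 and 0.102 CPM. Among the other 7 members at 0 against 0 the bound ran from at least 27.6-fold (Inmt) to at least 61.6-fold (Eps8l3). These bounds treat each count as a separate read. They would be lower if reads were counted in duplicate, which was not tested.

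Among members called higher than DMSO, the largest differences were in Fam102a and Fam214a, genes with little known function. Fam102a (chr2:32535332-32569756) measured 68.5 and 66.5 CPM in DMSO, 41.9 and 37.9 CPM with TGF-β, and 131.1 and 125.6 CPM with TGF-β+2APB. It was higher than DMSO by 0.99 on the log2 scale (SE 0.09, FDR 0.0004 in edgeR). Fam214a measured 52.1 and 53.9 CPM in DMSO, 32.6 and 36.3 CPM with TGF-β, and 91.4 and 80.8 CPM with TGF-β+2APB, higher than DMSO by 0.76 (SE 0.09, FDR 0.0012 in edgeR). Both calls held under all 14 alternatives. Spata20 and Spin2c, at mean DMSO levels of 1.32 and 1.09 CPM, regained 75.2% and 85.6%, and AA986860, also little known, was called lower than DMSO and regained 37.2%. Esrp2, a splicing regulator of epithelial isoforms, measured 54.4 and 52.3 CPM in DMSO, 26.5 and 26.6 CPM with TGF-β, and 38.4 and 40.7 CPM with TGF-β+2APB, and was called lower than DMSO (FDR 0.0066 in edgeR), but not without DMSO replicate 1 or either TGF-β+2APB library (FDR up to 0.0790). Its paralog Esrp1 was at or near 0 in every library.

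The 3 lysosome and thiol members had an FDR against DMSO between 0.0703 and 0.600 in edgeR. Ifi30, a lysosomal thiol reductase, measured 25.5 and 23.6 CPM in DMSO, 15.4 and 13.7 CPM with TGF-β, and 26.9 and 32.4 CPM with TGF-β+2APB (FDR 0.0703 in edgeR, and called by DESeq2). Txndc16, a thioredoxin-domain protein, regained 78.8%. Laptm5, a lysosomal membrane protein of blood cells, measured 2.55 and 1.03 CPM in DMSO, 0.730 and 0.524 CPM with TGF-β, and 1.49 and 21.8 CPM with TGF-β+2APB. Its high mean thus rests on TGF-β+2APB replicate 2, and without that library the log2 fold change against DMSO was -0.18.

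That library also held 103.8 CPM over the other 11 leukocyte markers, against 9.35 to 18.4 CPM in the other 5 libraries. In it 171 entries, including 6 of the 12 leukocyte markers and 1 member (Laptm5), were at least 5-fold higher than in every other library. The myeloid markers Csf1r, Itgam and Tyrobp measured 12.5, 12.9 and 7.92 CPM there, while the lymphocyte markers Cd3e and Cd79a were at 0.0254 and 0.838 CPM. Rab3il1, an exchange factor for Rab GTPases, measured 1.67 and 1.81 CPM in DMSO, 0.528 and 0.358 CPM with TGF-β, and 0.755 and 2.69 CPM with TGF-β+2APB. Gas7, a growth-arrest gene, measured 2.48 and 2.81 CPM in DMSO, 1.03 and 0.910 CPM with TGF-β, and 2.27 and 3.86 CPM with TGF-β+2APB. Both were highest in the library with the leukocyte transcripts, and whether these reads come from other cells was not tested. Without it, the log2 fold changes of Rab3il1 and Gas7 against DMSO were -1.11 and -0.13. Among other members, Ifi30, Il1rn, Lrp1, Gcat and Gch1 were also highest in that library. In that order, their log2 fold changes against DMSO were 0.33, 0.31, 0.36, 0.14 and 0.04 with it. Without it they were 0.22, 0.22, 0.30, 0.10 and 0.03.

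**Figure D4:**
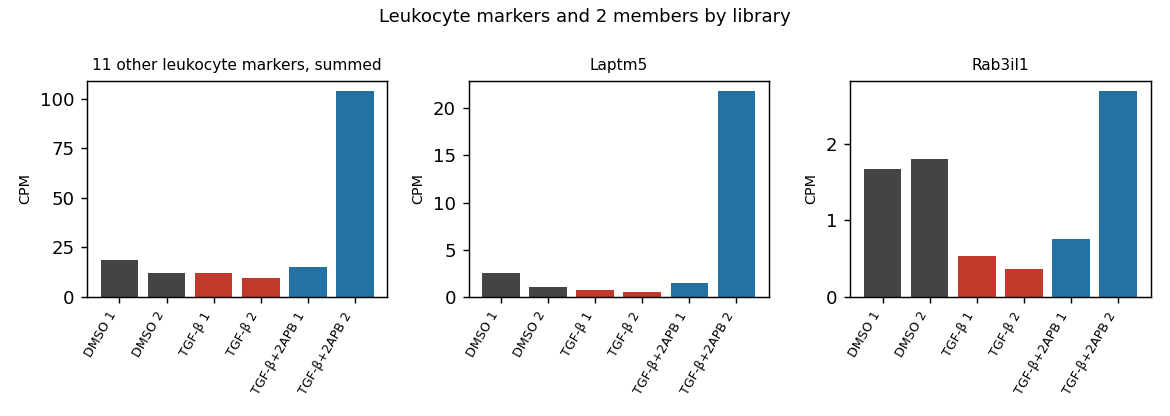
CPM per library of the 11 leukocyte markers other than Laptm5, summed, and of the members Laptm5 and Rab3il1, on linear axes from 0. TGF-β+2APB replicate 2 stands at 103.8 CPM for the markers and 21.8 CPM for Laptm5, above the other 5 libraries in all 3 panels.

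Close to the rule's 1.4-fold limit, the members just inside were Lgals4, Coq10a and Laptm5 (margins of 1.405, 1.408 and 1.411) and the entries just outside were Prkaa2, Foxo1 and Aplp1 (1.398, 1.396 and 1.386). Foxo1, a forkhead factor, measured 83.9 and 84.8 CPM in DMSO, 59.8 and 57.1 CPM with TGF-β, and 83.6 and 83.4 CPM with TGF-β+2APB, so a gene that lies next to its DMSO level is left out while Lgals4 is kept. Between replicates the members differed by a median of 1.04-fold in DMSO, 1.14-fold with TGF-β and 1.11-fold with TGF-β+2APB, against 1.04-fold, 1.14-fold and 1.06-fold over all entries with a mean DMSO level of 1 CPM or more (49 members and 11615 entries with no count of 0).

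Of 27 gene lists, 6 held 1 member each and 21 held none. Klf4 was the member among 15 tested Krüppel-like factors, of which 5 were called higher and 4 lower with TGF-β (21.8% and 19.7% of all entries), and 1 was higher and 2 were lower in TGF-β+2APB than in TGF-β (6.58% and 10.9%). Klf5, a factor of proliferating epithelium, fell with TGF-β by 1.04 on the log2 scale and by a further 0.73 when 2APB was added (edgeR, FDR 0.0048 and 0.0360), while Klf4 is a member because it fell and then rose. Elf3 stood among 12 epithelial transcription factors, of which 8 were lower than DMSO both with TGF-β and with TGF-β+2APB. Ehf, a related ETS factor of epithelium, fell by 3.19 with TGF-β and by a further 0.90 with 2APB (edgeR, FDR 4.8e-05 and 0.0069). Egr3 stood among 17 early-response factors (5 higher and 7 lower with TGF-β), of which Jun was the other one to fall with TGF-β and rise with 2APB. Tgfb3 stood among 21 genes of TGF-β signalling, of which 15 rose with TGF-β. Tgfb1 and Tgfb2 were among those 15, with log2 fold changes of 1.46 and 1.19 (edgeR, FDR 0.0003 and 0.0023). Gsta1 and Laptm5 were the members of the phase II and leukocyte lists.

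The members lie on 19 chromosomes (GRCm38 annotation), with at most 6 on one, and 4 pairs of neighbours lie within 1 Mb of each other. Fam214a (chr9:74952884-75032468) and Myo5c (chr9:75232020-75305451) are 199.6 kb apart and Egr3 and Hr 469.6 kb. In both of these pairs one gene was called higher than DMSO and the other lower. In the other pairs, Apoc1 and Igsf23 (244.6 kb) were both called lower, and Lrp1 was called higher and Coq10a not called (742.0 kb). Exons of 8 members overlap those of another gene in the table, for example Atp1b1 and Nme7 on opposite strands and Gcat and Galr3 on the same strand, and the strand setting of the counting is not given in the sources used here, so reads in those overlaps cannot be assigned. Cyp2d10, Gsta1, Spin2c and Serpinb1a have close paralogs, and how reads shared with them were counted is not known.

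RefSeq promoter windows (GRCm38.p6, 250 bases before to 50 after the start) were matched for 43 of the 58 members, with 57 windows in all. The E-box CAGGTG bound by SNAIL and ZEB repressors occurred on either strand in 16 of the 57 windows (28.1%), against 18.1% of windows of all genes tested and 20.2% of all windows. AP-1 letters (TGANTCA) occurred in 5 windows (8.77% against 5.72% of tested), the CRE TGACGTCA in 2 (3.51% against 3.06%), the KLF letters CCACACCC in 1 (1.75% against 3.70%), the SMAD palindrome GTCTAGAC in 1 (1.75% against 0.249%), and an NF-κB motif in 0 (against 0.438%). Median GC content was 56.7% in members against 60.3% in genes tested. These matches are descriptions of letters and were not tested. The upstream parts of 4 promoters with an E-box are shown for members with different outcomes: Elf3 (lower than DMSO), Cobl and Fstl4 (not called, 3 E-boxes each) and Fam214a (higher). Capitals mark CAGGTG or its reverse complement, and sequences run 5′ to 3′ on the strand of the gene, ending before any annotated exon.
Elf3 (chr1:135258569-135258722, minus strand): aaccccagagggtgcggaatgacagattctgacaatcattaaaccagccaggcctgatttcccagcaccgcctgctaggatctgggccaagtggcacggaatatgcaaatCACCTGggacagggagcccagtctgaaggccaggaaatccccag
Cobl (chr11:12464961-12465210, minus strand): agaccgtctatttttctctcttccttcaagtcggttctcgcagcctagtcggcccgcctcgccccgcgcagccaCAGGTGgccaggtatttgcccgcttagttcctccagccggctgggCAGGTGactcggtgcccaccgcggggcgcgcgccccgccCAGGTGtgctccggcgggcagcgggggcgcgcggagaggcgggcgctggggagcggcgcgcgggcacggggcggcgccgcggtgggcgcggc
Fstl4 (chr11:52764456-52764633, plus strand): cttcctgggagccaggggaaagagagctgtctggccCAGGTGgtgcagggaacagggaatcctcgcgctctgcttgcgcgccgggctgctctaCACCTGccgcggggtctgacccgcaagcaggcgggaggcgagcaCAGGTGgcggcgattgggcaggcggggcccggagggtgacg
Fam214a (chr9:74952630-74952879, plus strand): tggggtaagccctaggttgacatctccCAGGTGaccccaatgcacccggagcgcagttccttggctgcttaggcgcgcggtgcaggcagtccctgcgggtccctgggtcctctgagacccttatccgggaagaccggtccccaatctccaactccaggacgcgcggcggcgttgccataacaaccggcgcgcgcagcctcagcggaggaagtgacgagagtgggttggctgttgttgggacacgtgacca
Counted from the RefSeq start, the E-box of Elf3 begins at -140 and that of Fam214a at -223, those of Cobl begin at -176, -131 and -92, and those of Fstl4 at -214, -157 and -113. Fstl4, a secreted follistatin-like protein, measured 4.07 and 3.95 CPM in DMSO, 1.11 and 0.965 CPM with TGF-β, and 2.06 and 2.79 CPM with TGF-β+2APB, while Cobl measured 6.33 and 7.15 CPM, 2.57 and 1.71 CPM, and 4.63 and 4.47 CPM. An E-box thus stands in the promoter window of a member that ended above DMSO and of one that ended below it.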

How the data were processed

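RNA of NMuMG cells (3 groups, 2 libraries each) was sequenced, and the authors deposited raw gene counts without scaling. Per the labels, reads were checked with FastQC 0.11.2 and aligned with TopHat2 2.0.13 to mm10, while the methods of the study name a human build. Counting was by featureCounts. Every deposited count was even, for a reason not given in the sources used here. A spreadsheet had changed 25 names into dates, none of them a member. The members and lists were chosen with earlier results of these data known. CPM were computed from column totals. Counts were fitted with edgeR 4.0.16 (TMM, quasi-likelihood F-test, all 6 libraries in one fit, R 4.3.3) over the 13353 entries whose normalized counts averaged 20 or more, with Benjamini-Hochberg FDR, and the script was tested on simulated data. Intervals of 95% use the t quantile at each entry's total degrees of freedom in that fit. The common biological coefficient of variation was 17.4%. DESeq2 1.42.0, other scalings and filters, halved counts, a replicate block, and fits without each library were alternatives. Lengths and positions came from a GRCm38 annotation. Genes named were members on a list, the 12 with the largest margin, the 10 with the highest DMSO RPKM, the 6 largest rises and falls called against DMSO, and the 3 on each side of the 1.4-fold limit. Members named for a shared role, and listed genes set beside a member, were chosen after their values were seen. Floors of 3 counts cover counting error only and treat each count as a separate read, although every deposited count was even.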

Additional observations from a re-analysis of the deposited data

How the results depend on the processing

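Under the other settings no member called against DMSO changed direction. The number of members, 58, was 110 with the looser fold tried in the rule, 18 at a 2-fold rule and 31 at a mean DMSO level of 5 CPM. With no minimum it was 1125, which takes in any entry with a DMSO count and 0 in both TGF-β libraries, whatever 2APB did. It was 50 with no comparison of 0 with 0, an alternative chosen after seeing the data, as were halved counts (6 higher, 28 lower, 38 in both steps). With TMM-scaled CPM it was 64, of which 56 were shared. Leaving out 1 library gave 66 to 620 members, the latter without TGF-β replicate 2, and 129 without TGF-β replicate 1, 141 without TGF-β+2APB replicate 1 and 76 without replicate 2. The 5 calls higher than DMSO became 8 when each fit held just its own 4 libraries, 3 at an FDR of 0.01, and 3 to 8 with 1 library left out (3 without either DMSO library or TGF-β+2APB replicate 2, 8 without either TGF-β library). The 30 calls lower than DMSO became 14 without DMSO replicate 1, 17 without replicate 2, and up to 34 without others. The 38 calls in both steps became 23 in fits of 4 libraries, 17 at an FDR of 0.01, and 22 to 38 with 1 library left out. A group left with 1 library was taken to vary like the others. The cause of these changes was not tested. This includes whether the spread of the TGF-β pair, pooled into the main fit, changed the number of calls against DMSO. Against DMSO, Fstl4 (FDR 0.0509 in edgeR) was called in 8 of 14 alternatives and Il1rn in 7. With the replicate number as a block, 4 members were higher, 28 lower and 28 passed both steps, and Lrp1, Creb3l3 and Plet1 lost their calls. Deviations of same-numbered libraries correlated at 0.15, -0.46 and -0.26 between groups. Whether libraries of the same number share a batch was not tested. With 2 libraries per group, the standard error against DMSO ran from 0.07 to 1.18 on the log2 scale over the 50 members with counts. Differences larger than their standard error could also go uncalled, as in Il1rn (0.31, SE 0.11, FDR 0.0509 in edgeR).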
